A study of Mus musculus with 37 samples.

Results

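Hippocampal neuronal nuclei carrying a conditional knockout of Tet2 were compared with wild-type nuclei across all genes, using the normalized count of each library. The comparison took every library labelled as nuclei, 7 of the 37 libraries of the study: 4 wild-type (WT 1, 2, 5 and 6) and 3 conditional knockout (cKO 3, 4 and 9), named by the numbers in their titles. All came from mice of the C57/Bl6 strain. The knockout genotype was CamKIIaCreERT2;Tet2fl/fl, and the design text gives the wild-type animals as Tet2fl/fl, so the floxed allele was shared and the Cre driver was not. Such a Cre is made from the CamKIIa promoter, which is active in excitatory forebrain neurons, and enters the nucleus after tamoxifen. Interneurons and glia in the same preparation would be expected to keep the gene. Which exons are floxed, the age and sex of the animals, the tamoxifen schedule, and whether each library is 1 mouse or a pool are not given in the sources used here, so p-values measure the spread between these libraries. RNA was extracted with TRIzol, enriched for polyA and read as strand-specific pairs.

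Tet2 is 1 of the 3 mammalian TET dioxygenases, which oxidize 5-methylcytosine to 5-hydroxymethylcytosine and further forms that base excision repair can replace with unmodified cytosine. Hydroxymethylcytosine is abundant in neurons. Unlike Tet1 and Tet3, Tet2 lacks a CXXC DNA-binding domain of its own. The title of the study concerns hippocampal cognitive function after loss of neuronal Tet2, and the nuclei address what that loss changes in RNA of the living hippocampus.

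Depth ran from 6377244 to 12181847 reads in WT and from 9638526 to 14882249 in cKO libraries, and the ribosomal precursor Rn45s took 18.1% to 25.9% and 19.6% to 27.1% of them. WT 5, the shallowest library, had a read in the largest number of genes (17746, against 13966 to 15887 in the other libraries). Libraries correlated about as well between groups (Spearman 0.909 to 0.935 across genes) as within WT (0.909 to 0.928) and slightly better within cKO (0.935 to 0.941). No library was a copy of another, the smallest chi-square per gene being 19.3 between 2 libraries of 1 group.

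Markers were read in every library to check the label. Rbfox3, which encodes the nuclear antigen NeuN, stood at 814 to 1474 normalized counts over the 7 libraries. The excitatory markers Camk2a (9841 to 15388), Slc17a7 (933 to 1559) and Neurod6 (818 to 1587) were likewise present in each, so neuronal RNA was there as the label says. Glial RNA was present as well. The summed normalized count of 20 astrocyte markers was 17226 to 30278 in WT and 23731 to 26229 in cKO libraries, with none of the 20 at 0 in any library. For 20 markers of the oligodendrocyte lineage it was 5797 to 11467 and 7578 to 10132. The 17 microglial markers summed to 734 to 1406 and 977 to 1416. Ttr, the transthyretin of the choroid plexus, stood at 313, 316, 128 and 4483 in WT 1, 2, 5 and 6 and at 12518, 77.8 and 14626 in cKO 3, 4 and 9. It was high in 1 WT library and 2 cKO libraries and low in the other 4, so its groups overlapped. The sum over 21 vascular, choroid and meningeal markers ran from 1654 to 6936 in WT and from 1280 to 17155 in cKO. It was 6936, 15311 and 17155 in WT 6, cKO 3 and cKO 9. Most of that was Ttr itself, so the sum is no separate measure of choroid RNA. Folr1, another member, was also highest in WT 6, cKO 3 and cKO 9 (82.9, 149 and 115). It stood at 0, 44.4, 15.9 and 30.0 in WT 1, 2 and 5 and cKO 4. Itm2a of the same list did not follow these libraries, at 109, 147 and 316 against 164, 109, 73.9 and 216. Of the 21 markers, 13 were at 0 in at least 1 library, 1 of them in all. How far choroid RNA takes part in the differences below was not tested. Leaving out the 3 libraries of high Ttr (WT 6, cKO 3 and cKO 9) keeps cKO 4 alone against 3 WT libraries, so values given without them have no replicate on the cKO side and say nothing of choroid RNA as a cause.

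**Figure D1:**
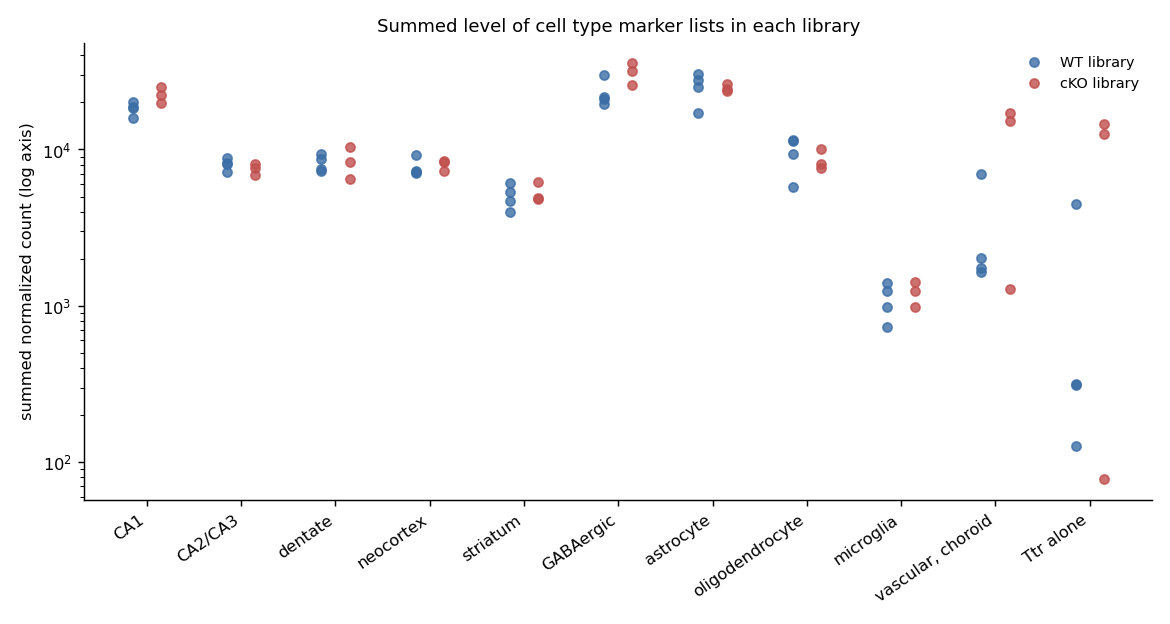
Summed normalized count of each marker list (log axis), 1 point per library, WT in blue and cKO in red, with Ttr alone at the right. The groups overlap for every list. The vascular and choroid sum is high in the same libraries as Ttr (4483 in WT 6, 12518 in cKO 3 and 14626 in cKO 9), which makes up most of it there.

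Tet2 stood at 1007, 893, 971 and 1070.4 normalized counts in WT and at 484, 566 and 866 in cKO. Every cKO library lay below every WT library, cKO 9 narrowly so. The cKO mean was 0.648 of the WT mean, with a log2 difference of −0.67 (SE 0.24), where log2 was taken of the normalized count plus 1 throughout. An exact two-sided permutation test gave p = 0.0286, the smallest that the 35 splits of 4 against 3 libraries allow. In the fit over all genes (limma, Benjamini-Hochberg adjustment) the adjusted p was 0.632. The count test DESeq2 gave an adjusted p of 0.283, so it did not call Tet2 either. The counts pool all exons of Tet2, deleted or not, so what is left of them does not measure how many nuclei lost the gene, and a lower share of cells with the transcript cannot be told apart from less transcript per cell here or for any gene below. With upper-quartile scaling the permutation p was 0.0571, and with a trend on exon length removed the difference was −0.36 (p = 0.314).

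Tet3 also stood lower in cKO, at 551, 690.2, 829.3 and 1326 in WT and 423, 522 and 497 in cKO. Its groups did not overlap, though WT 6 was far above the other libraries. Its log2 difference of −0.75 (SE 0.28, limma adjusted p 0.644, DESeq2 adjusted p 0.245) was as large as that of Tet2. Tet1 overlapped, at 103, 166, 296 and 215 against 127, 230.4 and 70.8 (−0.51, SE 0.48). Of 26 measured genes of the TET enzymes, their cofactors and base excision repair, 12 stood higher and 14 lower in cKO. The median difference was −0.04, against −0.09 over all genes tested. Among the 19 with a mean normalized count of 100 or more, 8 stood higher and 11 lower. Their median was −0.07, against 0.01 over all genes of that level, so the order of list and background depends on level. Every cKO library lay below every WT library in 4 of the 26 (15.4%, against 3.41% of the 18780 genes tested) and above in none (against 3.55%). Besides Tet2 and Tet3 these were Ogt, the O-GlcNAc transferase that binds TET proteins (−0.51), and Smug1, a uracil glycosylase (−0.87), both named after their values were seen.

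Among 17 DNA methyltransferases and methyl-CpG readers, 7 stood higher and 10 lower. Zbtb4, a zinc finger protein that binds methylated DNA, was the 1 member without overlap (5.88%, against 3.41% of all genes tested). It stood at 618, 1092, 590.1 and 764 in WT and 303, 375 and 518 in cKO (−0.93, SE 0.28, limma adjusted p 0.58). Mbd4, a glycosylase that removes thymine from G:T mismatches at methylated sites, stood at 149, 110.0, 173 and 124 against 43.7, 112 and 22.5. Its difference of −1.49 (SE 0.60) came with an overlap between cKO 4 and WT 2.

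At an adjusted p of 0.05 the limma fit made 0 calls among 18780 genes (0.0%). The smallest adjusted p was 0.464, and 1309 genes (6.97%) had an unadjusted p under 0.05, 570 higher and 739 lower in cKO. limma-voom made 0 calls as well, edgeR called 1 (0.00532%) and DESeq2 called 76 (0.405%), 21 higher and 55 lower. Of the 82 genes examined by name, 19 were among the DESeq2 calls. The values that follow are therefore descriptions of these 7 libraries and not changes that passed a test over all genes. Among the 9176 genes with a mean normalized count of 100 or more, every cKO library lay above every WT library in 521 (5.68%) and below in 423 (4.61%). Named genes were taken from these by the smallest p and the largest difference, so their lack of overlap follows from that choice.

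**Figure D2:**
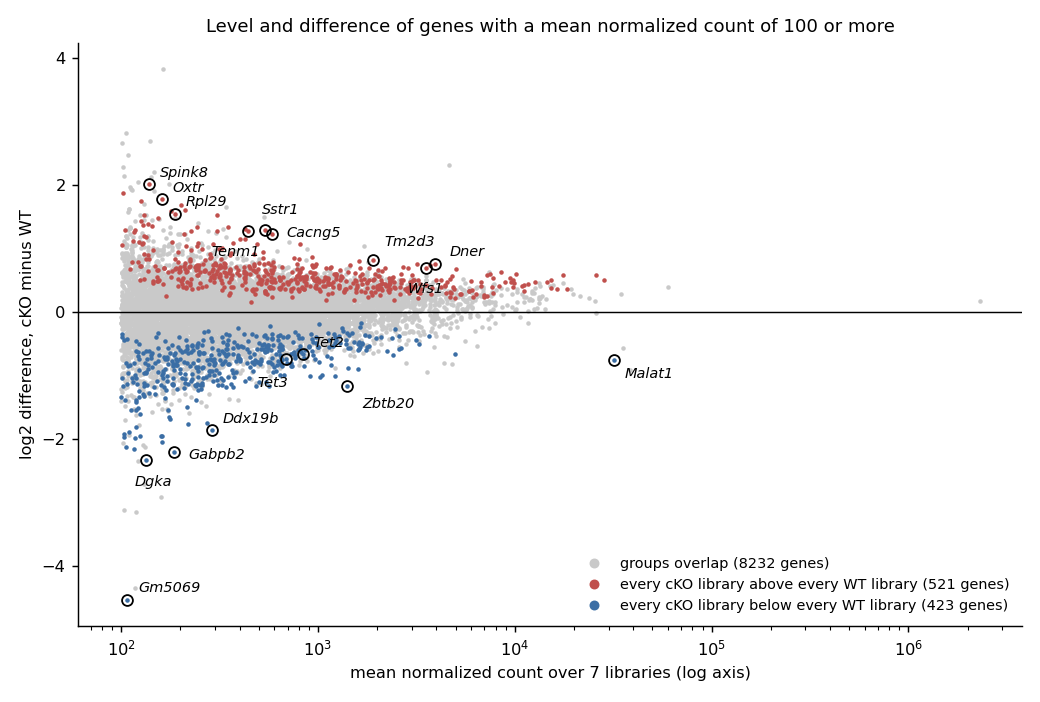
Each point is 1 gene with a mean normalized count of 100 or more, placed by that mean (log axis) and by its log2 difference, cKO minus WT. Red and blue mark the 521 and 423 genes whose groups do not overlap. Circled genes are named in the text, and Zbtb20 (−1.16) and Malat1 (−0.75) stand lower than most genes of their level.

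The 8 genes of smallest p that stood lower in cKO were led by Zbtb20 and Gabpb2. Zbtb20, a zinc finger repressor needed for the identity of CA1 pyramidal neurons (chromosome 16, 42875881 to 43642602, plus strand, GENCODE vM21 on mm10), stood at 1502, 1826, 1981 and 2055 in WT and 599, 839.8 and 1077 in cKO. All cKO libraries were below all WT libraries by a wide gap, and the cKO mean was 0.456 of the WT mean (−1.16, SE 0.23, limma adjusted p 0.529, DESeq2 adjusted p 0.00209). Gabpb2, a subunit of the ETS factor GABP (chromosome 3, 95181766 to 95217916, minus strand), stood at 332, 247, 379.9 and 162 against 67.7, 43.1 and 64.3. Its cKO mean was 0.208 of the WT mean (−2.20, SE 0.45, limma adjusted p 0.529, DESeq2 adjusted p 8.5e-04). The zinc finger gene Zfp592 stood at 562, 649, 635 and 741 against 258, 267 and 388 (−1.10, SE 0.26). Zfp53 (−2.13, SE 0.60) and Zkscan2 (−2.05, SE 0.50), from the same large class, did not overlap between groups at lower levels, with WT means of 161 and 238 and cKO means of 33.8 and 57.1.

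Other genes low in cKO serve the cytoskeleton, the synapse and RNA. Enah, an Ena/VASP protein that extends actin filaments, stood at 1434, 978, 1379 and 1485 in WT and 679, 604 and 637 in cKO (−1.02, SE 0.22). Eml5, a microtubule-associated protein, stood at 1816, 1211, 1873 and 1350.3 against 888, 668 and 743 (−1.01, SE 0.22). For both, the 3 cKO libraries lay close together, well under the lowest WT library. Iqsec3, an Arf exchange factor of inhibitory synapses, stood at 1237, 1327, 1543 and 1152 against 477, 659 and 900.5 (−0.99, SE 0.24). Ddx19b, a helicase of mRNA export, stood at 330.4, 531, 291 and 488 against 45.9, 131 and 212 (−1.86, SE 0.44). In both of these the cKO libraries were spread, with cKO 9 the highest and cKO 3 the lowest, as for Tet2. The lipid kinase gene Dgka (199 ± 85.5 in WT and 45.4 ± 39.7 in cKO, SD, n = 4 and 3) and the cilia gene Cfap74 (162 ± 41.1 and 56.2 ± 55.4) were without overlap but at counts where single libraries weigh much.

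In 2 cases the low genes were annotations that share sequence with others. Gm5069, listed by GENCODE as a transcribed processed pseudogene, stood at 159.5, 249, 174 and 124 in WT and 12.4, 30.0 and 0 in cKO (−4.53, SE 0.99). It overlaps exons of Itpkb on the other strand, and a processed pseudogene can share reads with its parent gene, so its counts are uncertain. Gm28042 had no read in any cKO library and stood at 230.2, 238, 29.0 and 77.8 in WT. It was named after its values were seen and was the 1 gene that edgeR called (adjusted p 0.00422). Against a floor of 3 counts per cKO library it was at least 55.9-fold lower although its WT values alone ran from 29.0 to 238. Its exons are shared with Jmjd7 (101, 71.7, 92.8 and 63.7 in WT, 27.7, 91.7 and 93.3 in cKO) and with Pla2g4b on the same strand. Those 2 genes overlapped between the groups, and how reads were divided among the 3 annotations is not given in the sources used here.

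Tm2d3 had the smallest p of the genes that stood higher in cKO. Tm2d3, a TM2 domain membrane protein (chromosome 7, 65691169 to 65701913, plus strand), stood at 1415, 1629, 1321 and 1399 in WT and 2434, 2442 and 2722 in cKO. Both groups were tight and far apart, the cKO mean being 1.76 times the WT mean (0.82, SE 0.19, limma adjusted p 0.529, DESeq2 adjusted p 0.00141). Sstr1, a receptor for somatostatin, stood at 336, 206, 496 and 306 against 689, 1112 and 635 (1.29, SE 0.31). Dner, a transmembrane ligand of Notch, stood at 3332, 3452, 2989.6 and 2442 against 4831, 5448 and 5124 (0.76, SE 0.19). Gpx1, the glutathione peroxidase that clears hydrogen peroxide, stood at 226, 237, 332 and 267 against 559, 556 and 635 (1.15, SE 0.28). In each of these 3 the lowest cKO library was above the highest WT library, which the choice of genes required.

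Cacng5, an auxiliary subunit of AMPA receptors (chromosome 11, 107874605 to 107915055, minus strand), stood at 439, 192, 415 and 470.0 in WT and 728, 1089 and 758 in cKO (1.23, SE 0.31, limma adjusted p 0.529, DESeq2 adjusted p 0.0586). Tenm1, a teneurin that joins pre- and postsynaptic membranes (chromosome X, 42527866 to 43429126, minus strand), stood at 354, 291, 347 and 135 against 706, 707 and 531 (1.28, SE 0.33, limma adjusted p 0.529, DESeq2 adjusted p 0.0750). WT 6 was the lowest library for Tenm1 and WT 2 for Cacng5. Their groups did not overlap, which the choice of genes required. Spink8, a protease inhibitor gene known as a CA1 marker, stood at 86.6, 87.0, 31.9 and 44.5 against 245, 287 and 183, with a cKO mean 3.82 times the WT mean (2.02, SE 0.53). The oxytocin receptor Oxtr stood at 122, 82.8, 43.5 and 57.6 against 126, 383 and 309. Here cKO 3 was barely above WT 1, so the gap of 1.78 (SE 0.52) rests on cKO 4 and 9. Of the same size and without overlap were the ATP-gated channel P2rx4 (1.59, SE 0.47), the ligand Wnt2 (1.69, SE 0.48), the neurexin-like Cntnap3 (1.75, SE 0.52) and the BMP-binding protein Bmper (131 ± 95.2 in WT and 318 ± 19.6 in cKO).

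Of the genes named so far, Tet2, Zbtb20, Gabpb2, Gm5069, Eml5, Dgka, Cfap74, Mbd4, Tenm1, Dner, Malat1 and Gm28042 share exon bases with an annotated gene on the other strand. Zbtb20 (a microRNA), Tm2d3 (Tarsl2), Malat1 and Gm28042 share some on the same strand, as Jmjd7 and Pla2g4b do with Gm28042. Among genes named further on, Shank1, Syp, Kcnh7, Tap2, Kcnq1ot1, Meg3, Ndufa3, Cox4i1, P2ry12, Rarb and Map2 also share some on the other strand. Meg3 shares some on the same strand too. The strand setting of the counting is not given in the sources used here, so part of the reads of all these genes may belong to the neighbour. Ogt, Smug1 and Peg13, and Jmjd7 and Pla2g4b beyond Gm28042, were not examined for shared exons.

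**Figure D3:**
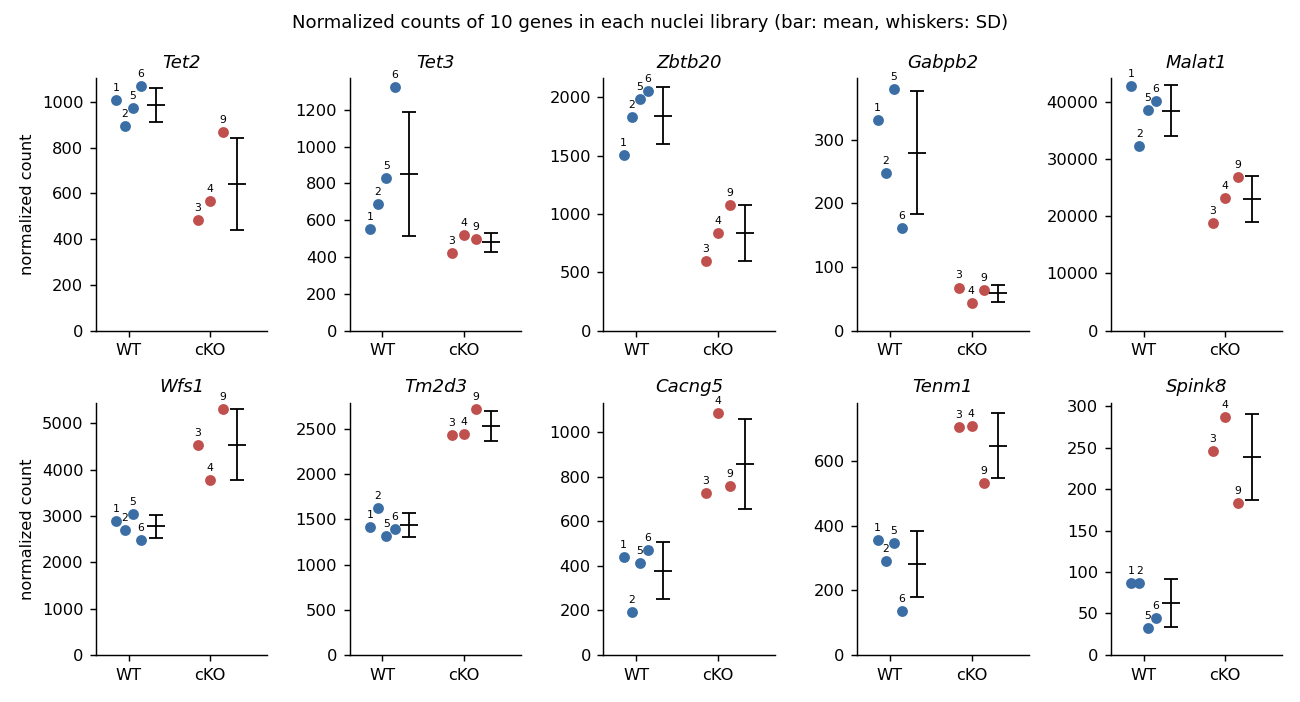
Normalized counts of 10 genes (linear axes from 0), 1 point per library with its number, WT in blue and cKO in red, and beside each group its mean (bar) and SD (whiskers). In every panel the 3 cKO libraries lie wholly on 1 side of the 4 WT libraries. That is no separate result, since most of these genes were named because their groups did not overlap. The gap is narrow for Tet2 (866 against 893) and wide for Zbtb20 (1077 against 1502).

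Since TET enzymes act on cytosine in CG pairs, the starts of a pair of genes that both stood lower in cKO are shown, to contrast few and many CG pairs. Both sequences are RefSeq (GRCm38.p6), from 250 bases before to 50 after the listed start, 5′ to 3′ on the gene's strand, with CG pairs in capitals. The listed start of Ddx19b is the 5′ end of the gene in GENCODE vM21, and that of Enah lies 10 bases inside it. The pair was chosen after these counts had been seen.
Ddx19b, chr8:111031702-111032001, minus strand: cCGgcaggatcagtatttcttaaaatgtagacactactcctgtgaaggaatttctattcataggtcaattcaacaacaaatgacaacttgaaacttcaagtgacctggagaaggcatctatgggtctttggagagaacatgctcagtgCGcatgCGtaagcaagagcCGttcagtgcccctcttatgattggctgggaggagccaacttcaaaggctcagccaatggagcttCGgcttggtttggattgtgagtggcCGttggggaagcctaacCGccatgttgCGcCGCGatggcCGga
Enah, chr1:182019931-182020230, minus strand: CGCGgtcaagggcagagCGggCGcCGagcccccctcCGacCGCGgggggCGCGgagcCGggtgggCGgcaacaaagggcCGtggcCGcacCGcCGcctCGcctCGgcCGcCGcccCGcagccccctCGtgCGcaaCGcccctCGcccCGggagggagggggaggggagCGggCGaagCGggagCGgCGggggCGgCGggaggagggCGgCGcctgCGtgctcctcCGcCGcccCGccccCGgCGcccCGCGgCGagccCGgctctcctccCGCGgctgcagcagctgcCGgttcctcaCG
The Ddx19b window held 11 CG pairs and the Enah window 49. CG reads the same on both strands, so 1 strand was counted. Of 27025 promoters of that length, 94.2% held at least 1 CG, with a median of 7, and of the 7037 that belonged to genes with a mean of 100 or more, 99.7% did, with a median of 22. Among those 7037 genes the number of CG pairs had almost no relation to the difference between cKO and WT (Spearman −0.06, across genes, which are not replicates). RefSeq starts can lie far inside a GENCODE gene, and 6155 of the 7037 (87.5%) were within 500 bases of its 5′ end. Over those 6155 it was −0.08. Over all 14047 genes tested with a promoter it was 0.16. The limit at 100 was set after the value over all genes had been seen, and the sign of this relation depends on it. Low genes dominate the full set: of 5 equal groups by level, the lowest had a median difference of −0.69 and the highest of 0.07. Methylation itself was not measured.

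Markers of CA1 pyramidal cells stood mostly higher in cKO. Of 14 measured, 11 were higher and 3 lower, with a median of 0.42 against −0.09 over all genes tested. Every cKO library was above every WT library in 2 of them (14.3%) and below in 1 (7.14%), where all genes gave 3.55% and 3.41%. The 2 were Spink8 and Wfs1. Wfs1, wolframin of the endoplasmic reticulum (chromosome 5, 36966104 to 36989205, minus strand), stood at 2891, 2688, 3051 and 2471 in WT and 4529, 3775 and 5304 in cKO, a ratio of 1.63 (0.70, SE 0.19, limma adjusted p 0.569, DESeq2 adjusted p 0.0166). The 1 below was Zbtb20, so the 3 CA1 markers that separated the groups did not share a direction. For CA2 and CA3 markers the split was 7 higher and 12 lower of 19 (median −0.17). Socs2 was the member without overlap (5.26%, against 3.41% of all genes), at 522, 567, 477 and 725 against 359, 414 and 445. Without WT 1 that median was −0.03, and without WT 2 or cKO 4 −0.09 or −0.07. Dentate markers were divided evenly, 11 higher and 12 lower of 23 (median −0.02). There Glis3 (−1.29, SE 0.43) and Ajap1 (0.71, SE 0.30) had the smallest p, in opposite directions.

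GABAergic interneuron markers were higher in 25 of 31, with a median of 0.30, and the list summed to 19569 to 30053 in WT and 25818 to 35517 in cKO. Htr3a, a serotonin-gated channel of interneurons, stood at 696, 293, 452 and 461 against 952, 687 and 1415 (1.10, SE 0.30). Sst, the somatostatin precursor, stood at 1836, 1193, 1132 and 1217 against 1544, 2564 and 3013 (0.79, SE 0.24). In both, WT 1 reached into the cKO range. Without WT 1 the median of the list was 0.60. Interneurons would not be expected to express the Cre driver, which was not checked here. Whether the share of interneuron nuclei differed between the libraries was not tested. Neuropeptide precursors and their processing genes, many of them shared with that list, were higher in 26 of 31 (median 0.37), Cck among them (7679, 6888, 5044 and 4388 against 7237, 8472 and 12093). Markers of striatum and thalamus (14 of 22 higher, median 0.17) and of neocortex and subiculum (16 of 25, 0.07) gave no sharper split.

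Synaptic lists had medians from −0.01 to 0.19. Of 50 genes of learning, plasticity and memory signalling, 26 were higher and 24 lower (median 0.01). The scaffold gene Shank1 (156, 103, 286 and 213 against 63.4, 47.8 and 115) and the exchange factor Kalrn (1987, 2407, 3820.4 and 3843 against 1861, 1859 and 2216) had the smallest p, and both overlapped. Channel genes were split 19 to 22 of 41 (median −0.01). In that list the potassium channel Kcnh7 stood lower without overlap (−0.76, SE 0.32) and Kcnq3 higher with overlap (1.22, SE 0.46). Genes of vesicle release were higher in 26 of 40 (median 0.09), a direction that did not hold without WT 6 (median −2.84e-05) or with cKO 4 alone against WT 1, 2 and 5 (−0.15). Syp, the vesicle protein synaptophysin, stood at 8989.6, 8601, 7864 and 7473 against 10233, 11413 and 13602 (0.51, SE 0.19). The vesicle protein Sv2c went the other way at low counts (107 ± 56.1 and 17.6 ± 20.1). Auxiliary proteins of AMPA receptors were higher in 11 of 14 (median 0.19), with Cacng3 (1029, 665, 645 and 590.3 against 1305, 1036 and 1251) beside Cacng5. Among teneurins, latrophilins and other adhesion genes 20 of 31 were higher (median 0.10), with the cadherin Cdh13 (1622, 2054, 1118 and 1795 against 2091, 2540.1 and 2324) beside Tenm1.

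Immediate early genes, which neuronal activity induces, were higher in 28 of 35 (median 0.27), yet none of the 35 had an unadjusted p under 0.05. Nr4a2 stood at 327, 306, 284 and 123 against 307, 406 and 409.5, and Npas4 at 132, 125, 169.6 and 148 against 147, 49.3 and 75.0. Both overlapped. With the trend on exon length removed over all genes tested, the median of the list was 0.43. Removed among genes of mean 100 or more, it left 0.13 in place of 0.26 for the 21 members at that level. In the list of integrated stress and unfolded protein genes, 32 of 39 were higher (median 0.31), 5 of them without overlap (12.8%, against 3.55% of all genes). The chaperone Calr (3867, 3629.9, 2982 and 3738 against 3981, 5361 and 5862) and Sel1l of the degradation machinery (2508, 1688, 2499.6 and 2419.7 against 2983, 3392 and 2907) had the smallest p, and in Calr cKO 3 was only just above WT 1. Cholesterol synthesis genes were higher in 20 of 25 (median 0.15). In the interferon and antigen presentation list, 15 were higher and 13 lower of 28. Tap2, a transporter that loads peptides for MHC class I, stood at 119.6, 157, 126 and 142 against 288, 496 and 245 (1.27, SE 0.37), while Stat2, a transducer of interferon signals, stood at 271, 319.9, 399 and 347 against 127, 223 and 122 (−1.12, SE 0.35). Neither pair of groups overlapped.

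Nuclear RNAs and messages of ribosomal proteins were at opposite ends of the 26 list medians. Of 13 noncoding RNAs known to stay in the nucleus, 10 stood lower in cKO, with a median of −0.56. Without WT 5 it was −0.37, and with cKO 4 alone against WT 1, 2 and 5 it was −0.25. Malat1, which stood lower, and Peg13, which stood higher, were the members without overlap (7.69% each, against 3.41% and 3.55% of all genes). Malat1, the abundant RNA of nuclear speckles (chromosome 19, 5795690 to 5802672, minus strand), stood at 42668, 32204, 38614.5 and 40159 in WT and 18867, 23123 and 26889 in cKO. The groups did not overlap, and the cKO mean was 0.598 of the WT mean (−0.75, SE 0.22, limma adjusted p 0.58, DESeq2 adjusted p 0.00647). Kcnq1ot1, the imprinted antisense RNA of Kcnq1, stood at 4396, 2825, 5609.6 and 5231 against 2261, 2891 and 1789 (−0.94, SE 0.24), where cKO 4 was just above WT 2. The imprinted Meg3, named after its values were seen, stood at 38787, 26668, 73552 and 55765 against 18836, 28239.7 and 26291 (−0.91, SE 0.30), with the same 2 libraries overlapping. Peg13, an imprinted RNA also named after its values were seen, stood at 193, 281, 358 and 181 against 399.8, 421 and 391 (0.73, SE 0.32).

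Cytosolic ribosomal protein genes were higher in cKO in 76 of 81, with a median of 0.44, and 34 of them (42.0%, against 3.55% of all genes) had every cKO library above every WT library. The list summed to 40702 to 55032 in WT and 59729 to 63410 in cKO. Rpl29, of the large subunit, stood at 85.5, 129.7, 123 and 75.8 against 279.6, 273 and 344 (1.55, SE 0.40), and Rps23, of the small subunit, at 255, 279.8, 275 and 214 against 431, 669 and 403 (0.94, SE 0.30). Many ribosomal protein genes have processed pseudogenes, so reads of single members are uncertain. Nuclear-encoded genes of the respiratory chain were higher in 79 of 84 (median 0.36), 17 of them without overlap (20.2%, against 3.55%). Ndufa3 of complex I stood at 218, 169, 161 and 164 against 313, 287 and 483 (0.99, SE 0.34), and Cox4i1 of complex IV at 2257, 2623, 2065 and 1997 against 3192, 3039 and 3279 (0.51, SE 0.18). Members of such lists vary together within a library, so these counts are not independent observations. With cKO 4 alone against WT 1, 2 and 5 the median of the respiratory list was 0.12. Leaving out 1 library at a time moved the median by over 1.5 times in 21 of the 26 lists and turned its sign in 11. The other 5 were the ribosomal (0.37 to 0.49), respiratory (0.27 to 0.45), CA1 (0.35 to 0.53), neuropeptide (0.28 to 0.42) and integrated stress (0.24 to 0.34) lists.

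**Figure D4:**
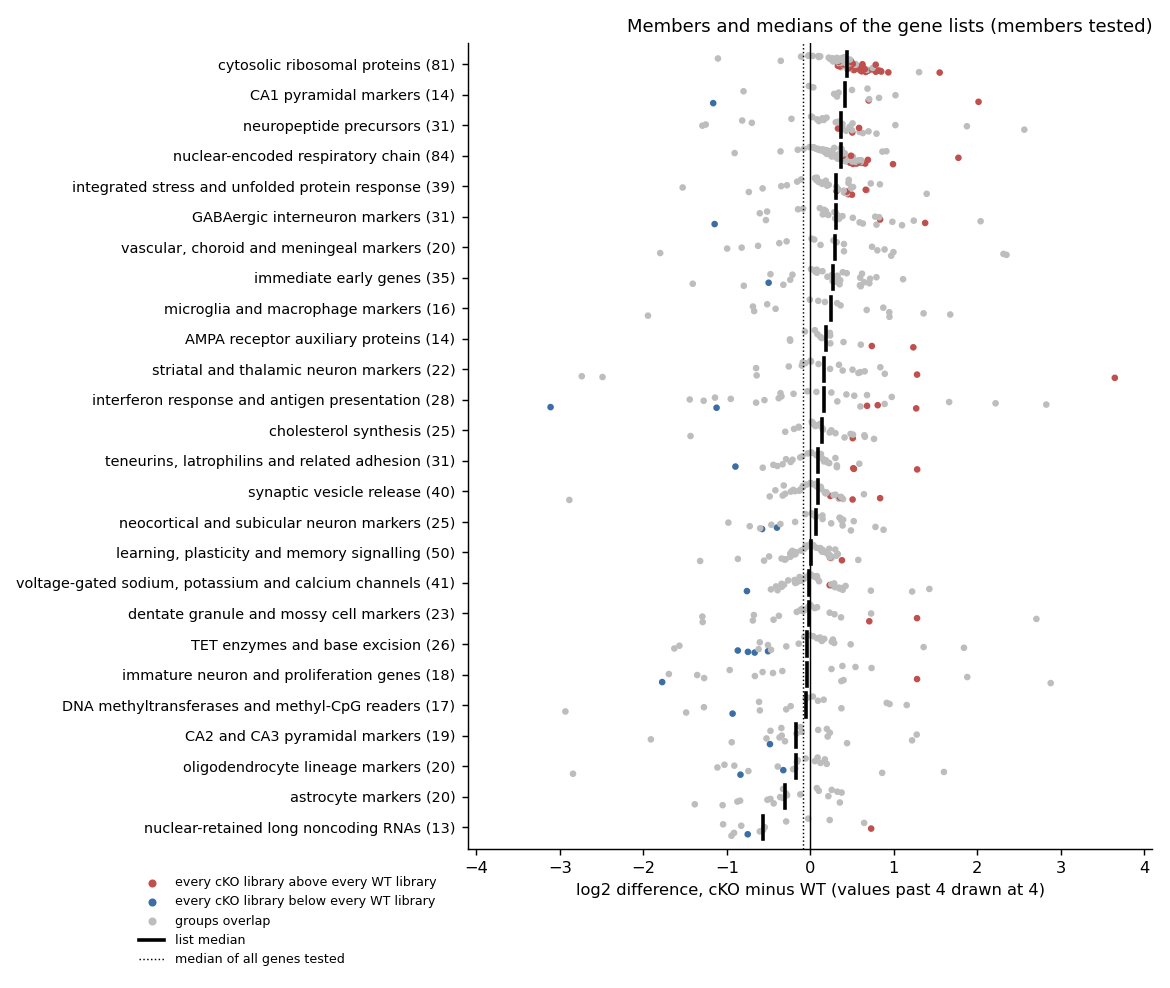
Log2 difference, cKO minus WT, of each member of 26 gene lists (number tested in brackets), with the median of each list as a black bar and the median of all genes tested (−0.09) as a dotted line. Red and blue members had no overlap between groups. Cytosolic ribosomal proteins (median 0.44) are at the top and nuclear-retained long noncoding RNAs (median −0.56) at the bottom.

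Exon length moved with these lists. Among 9143 genes with a mean of 100 or more and a known length, the difference between cKO and WT was lower the greater the summed exon length of the gene (Spearman −0.33, across genes). These genes were divided into 10 equal bins. In the bin of shortest genes (median 1542 bases) the median difference was 0.29, and 16.1% of genes had every cKO library above every WT library. In the bin of longest genes (median 13778 bases) it was −0.22, and 9.40% had every cKO library below. Over all 18565 genes tested with a length the correlation was −0.06, and the limit at 100 was again set after that value had been seen. Each library set against the mean of the other 6 gave correlations of 0.11, −0.07, 0.32 and 0.19 for WT 1, 2, 5 and 6 and of −0.20, −0.04 and −0.32 for cKO 3, 4 and 9. WT 2 and cKO 4 were thus near 0 and overlapped, and WT 5 and cKO 9 were the extremes. Where this trend comes from was not tested.

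**Figure D5:**
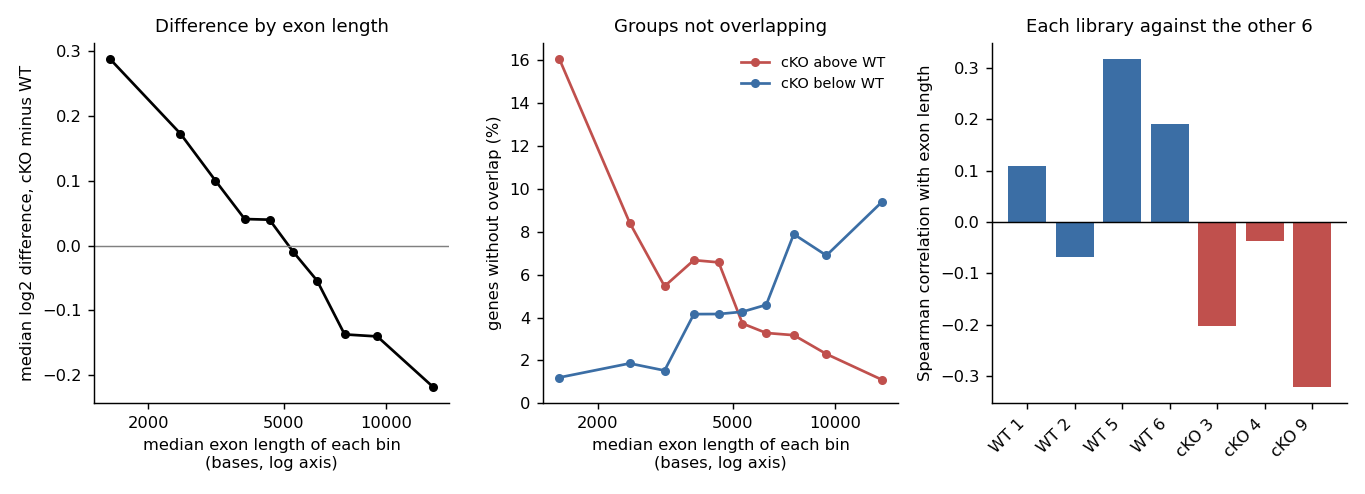
Left, median log2 difference (cKO minus WT) of genes in 10 bins by exon length (log axis), for genes with a mean normalized count of 100 or more. Middle, the percentage of genes in each bin whose groups do not overlap, in red above and in blue below WT. Right, the Spearman correlation across genes between exon length and the difference of each library from the mean of the other 6, WT in blue and cKO in red. The median runs from 0.29 to −0.22, and WT 2 (−0.07) and cKO 4 (−0.04) lie nearest 0.

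A smooth trend on exon length was removed from each library among the genes with a mean of 100 or more, a step chosen after the data had been seen. Over all these genes the median was then 0.02. The 77 ribosomal protein genes kept a positive median, 0.25 in place of 0.45, with 64 higher in place of 74, and the 77 respiratory genes a median of 0.14 in place of 0.35. For the 9 nuclear RNAs it was −0.40 in place of −0.56. For the 11 CA1 markers it was 0.50 in place of 0.34. Of single genes, Zbtb20 had −0.81, Malat1 −0.65, Kcnq1ot1 −0.40 and Tet2 −0.41, while Wfs1 had 0.67, Cacng5 1.21, Tenm1 1.54 and Spink8 1.63. Removed over all genes tested instead, the trend left a ribosomal median of 0.57 in place of 0.44. The respiratory median was then 0.47 in place of 0.36 and that of nuclear RNAs −0.37 in place of −0.56. For CA1 markers it was 0.60 in place of 0.42, and for all genes tested 0.08 in place of −0.09. What the removal does to these medians thus depends on the limit at 100.

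Of 20 astrocyte markers 13 were lower in cKO (median −0.31), none without overlap. That median was −0.11 without cKO 9, −0.16 without WT 1 and −0.54 without WT 5. Of 20 oligodendrocyte markers 13 were lower (median −0.17, and −0.05 without WT 1, −0.07 without WT 2 and −0.39 without WT 5), 2 of them without overlap (10%, against 3.41% of all genes). Over all genes tested, 10351 of 18780 stood lower. The glutamate transporter gene Slc1a3 stood at 636, 885, 445 and 383 against 174, 409.9 and 270.1 (−1.05, SE 0.34). Mag, a protein of myelin, stood at 377, 545, 273 and 284 against 179, 171 and 255 (−0.84, SE 0.34). Of these, Slc1a3 overlapped and Mag did not, and WT 2 was the highest library in both. Of 16 microglial markers tested 10 were higher in cKO and 6 lower (median 0.25, and 0.09 to 0.39 when 1 library was left out). Most were at low counts, with 3 at a mean of 100 or more. Tmem119 stood at 170, 88.7, 20.3 and 87.9 against 175, 146 and 109 (0.95, SE 0.63). P2ry12 went the other way, at 4.56, 22.2, 24.6 and 46.5 against 2.91, 0 and 34.3 (−1.94, SE 1.42). Both overlapped. Of 18 immature neuron and proliferation genes 9 were higher and 9 lower (median −0.04, and −0.35 to 0.30 when 1 library was left out). In 1 member every cKO library lay below every WT library and in 1 above (5.56% each, against 3.41% and 3.55% of all genes). Nes, at low counts, stood at 0, 0, 5.80 and 2.02 against 15.3, 36.2 and 5.36 (2.88, SE 1.31), with overlap. Mki67, a mark of dividing cells and also at low counts, stood lower without overlap. It was at 55.8, 41.8, 50.7 and 137 against 29.1, 22.3 and 8.58 (−1.77, SE 0.86).

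The same genes were read in the second knockdown of the study, which shares no library with the nuclei: 6 libraries of cultured primary neurons labelled shLuc and 6 labelled Tet2 KD, extracted with RNeasy and fitted within their own table. There limma called 2043 of 16164 genes higher (12.6%) and 2137 lower (13.2%). Tet2 fell in those cultures from 459 ± 74.7 to 175 ± 87.6 (SD, n = 6 each, limma adjusted p 1.1e-04). Across 15576 genes tested in both, the 2 sets of differences had a Spearman correlation of 0.04. Of 520 genes that were higher without overlap in cKO nuclei, 280 were higher and 240 lower in the knockdown, with 119 (22.9%) called higher and 65 (12.5%) called lower, where genes of mean 100 or more in nuclei gave 16.7% and 17.5%. Of 422 that were lower without overlap, 51 (12.1%) were called higher and 64 (15.2%) lower.

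Of single genes, P2rx4 rose in the knockdown cultures from 101 ± 13.4 to 232 ± 25.1 (log2 difference 1.20, limma adjusted p 3.2e-06), and Tap2 (1.31), Wnt2 (0.65) and Tm2d3 (0.44) rose there too. Each of these 4 also stood higher without overlap in cKO nuclei. Tet3 rose in the cultures (290.1 ± 30.1 to 433 ± 47.5) and was lower in cKO nuclei. The same held for Ddx19b (0.45), Iqsec3 (0.79), Zbtb20 (0.31), Dgka (0.81) and Npas4 (2.52), of which Npas4 overlapped in the nuclei. Tenm1 (−0.47), Oxtr (−1.26), Cntnap3 (−0.82), Cdh13 (−0.63) and Htr3a (−1.01) fell in the cultures and stood higher in cKO nuclei, Htr3a with overlap. Zbtb4 (−0.58), Mbd4 (−0.97), Kalrn (−0.48) and Tet1 (−0.61) fell in the cultures and stood lower in cKO nuclei. Nr4a2 (0.94), Cck (0.66) and Calr (0.31) rose in the cultures and stood higher in cKO nuclei. These genes are examples and not a full count of either direction. Wfs1 (0.24), Cacng5 (0.15), Gabpb2 (−0.78), Enah (−0.23) and Malat1 (−0.24) were not called in the cultures. Hippocampal nuclei and cultured neurons differ in source, compartment and extraction as well as in the way Tet2 was lowered, and the difference between the 2 experiments was not tested.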

How the data were processed

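RNA-seq of 7 nuclei libraries and, for side-by-side values, 12 libraries of the second knockdown was used, each from its own deposited table of 24411 genes. The build was mm10, with STAR, RSEM and DESeq2 named as tools, per the submitters' processing notes. Their versions, roles and annotation are not given in the sources used here. The deposited signal of each library is a normalized count: every value divided by the lowest above 0 gave a whole number (100% of values, within 0.01), so reads were recovered for the count tests. The authors' fold changes and p-values were not used. Nuclei columns were mapped to samples by title, knockdown columns to groups.

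limma 3.58.1 (R 4.3.3, trend on level) was fitted to log2(value + 1) for genes with a mean of 0.5 or more, two-sided, with Benjamini-Hochberg adjustment over all genes and a threshold of 0.05. On this scale changes of low genes are understated. Alternatives were edgeR 4.0.16, DESeq2 1.42.0, limma-voom, other scalings, pseudocounts and filters, each library left out, and an exon-length trend (loess, span 0.5) removed. The fits were tested on simulated data. Lengths and positions are GENCODE vM21 (98.5% of genes matched by symbol), promoters RefSeq (7037 of the 9176 genes with a mean of 100 or more matched by symbol).

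Named genes were Tet1 to Tet3, the 8 of smallest p and, at an unadjusted p under 0.01, the 6 of largest difference in each direction among genes of mean 100 or more without overlap, the 2 of smallest p in each of 26 lists, and Zbtb20, Wfs1, Tenm1 and Cacng5. Exceptions are marked. These genes and the lists were chosen with earlier results of these data known. Settings named as chosen after seeing the data were added later.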

Additional observations from a re-analysis of the deposited data

Results flagged for a closer look

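Of 112 comparisons of 1 WT library with the other WT libraries, 7 stood apart by more than Dixon's limit, which chance passes in about 1 of 20. WT 1 was the highest WT library for Cacng3 (1028.8 normalized counts, others 590.3 to 665), Sst (1835.5, others 1132 to 1217) and Ndufa3 (217.6, others 161 to 169). WT 6 was the highest for Ttr (4482.6, others 128 to 316) and Mki67 (137.5, others 41.8 to 55.8). WT 2 was the lowest for Sel1l (1688.3, others 2419.7 to 2508) and for the mean log2 level of immature neuron and proliferation genes (4.54, others 5.44 to 5.55).

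Of 48 named genes whose groups did not overlap in the nuclei, 4 went opposite ways in the second knockdown: every cKO nuclei library lay on 1 side of WT and every Tet2 knockdown culture on the other side of shLuc. Tet3 (0.58 in the cultures, −0.75 in the nuclei), Ddx19b (0.45 and −1.86) and Iqsec3 (0.79 and −0.99) were higher in the cultures and lower in the nuclei, and Cdh13 (−0.63 and 0.52) was the reverse. Tet2 (lower) and Tm2d3, Wnt2, P2rx4 and Tap2 (higher) were without overlap in the same direction in both experiments. How often genes outside these 48 did either was not counted. The difference between the experiments was not tested.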

How the results depend on the processing

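limma and limma-voom made 0 calls in every alternative run with them, with 706 to 1617 genes at an unadjusted p under 0.05, while edgeR called 1 and DESeq2 76. Tet2 stayed lower in all alternatives. Its difference was −0.62 (p = 0.0571) with upper-quartile factors, −0.36 (p = 0.314) with the exon-length trend removed, −0.41 (p = 0.229) with that trend removed at a mean of 100 or more and −0.75 (p = 0.25) without WT 6, cKO 3 and cKO 9, by exact permutation. Leaving out 1 library gave −0.91 to −0.49, with too few splits to reach 0.05. Of 82 named genes 19 passed in DESeq2, and in edgeR only Gm28042 did. Without WT 6, cKO 3 and cKO 9 (chosen after seeing the data, with cKO 4 alone assumed to vary like WT) Tet1 turned to 0.42, Rarb to 0.37 and Ttr, the gene by which these libraries were picked, to −1.57. Snap25, near 0, turned to 0.072 and 0.0039 with the length trend removed (all genes and mean of 100 or more), 0.047 without cKO 4, with a range of −0.31 to 0.19 when 1 library was left out, and Map2 to 0.049 with the trend removed. The causes were not tested. A positive median held in 17 of 26 lists (15 to 22 over the alternatives), and 27 of 520 list medians moved by more than 1 SD of WT, in 14 lists. Scaling moved the median over all genes from −0.09 to between −0.15 and −0.05, and the share of genes of mean 100 or more that stood higher from 51.3% to between 44.7% (library totals without Rn45s) and 55.1%. The second knockdown gave 3971 to 4226 calls against 4180. No paired analysis was possible because the nuclei libraries of the 2 groups share no replicate number. Depth limits genes at low counts, where 3 cKO libraries leave single libraries much weight.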
